A study of Mus musculus with 3 samples.

Results

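Lrig1, Sox2, Runx1, Stmn1, Iqgap3, Bmi1 and Prom1 have each been used to mark stem or progenitor cells, several of them in the isthmus of the stomach gland. These 7 genes were chosen by symbol from a table of 56691 genes, and all 7 were present once. Each also reached 1 FPKM or more in some library, the limit that 13351 genes passed. FPKM is the read count scaled to exonic length and to the library's total, and levels of different genes are compared here on this scale only.

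RNA was sequenced from 3 cultures of mouse gastric corpus organoids, which are epithelial structures grown from tissue cells in a gel, here in a medium for proliferation. All cultures carry the label P5 and come from mice of about 8 weeks whose Mist1 locus carries the Cre/ERT2 recombinase, together with a red fluorescent reporter behind a stop cassette (RFPLSL), so Cre is made where Mist1 is active. The Mist1- and the Mist1+ culture are labelled WT. The Gpx4 KO-Mist1+ culture is from mice that in addition have a floxed Gpx4 gene. Each group is 1 library, so no difference has a replicate check, no test between groups was possible, and every comparison describes these libraries. Values of the 3 libraries are given below in the order Mist1-, Mist1+ and Gpx4 KO-Mist1+, and the last is called the labelled knockout. How many mice gave each culture, and when Cre was activated, is not given in the sources used here.

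The gland of the gastric corpus is renewed from dividing cells in the isthmus, a narrow zone between the pit and the neck, while chief cells at the base, which express Mist1, can also return to division after injury. Lrig1 is a transmembrane protein that restrains growth factor receptors, and Sox2 and Runx1 are transcription factors. Stmn1 destabilises microtubules, Iqgap3 is a scaffold protein of dividing cells, Bmi1 belongs to a Polycomb repressive complex, and Prom1 (CD133) is a membrane protein of cell protrusions. Marker genes of this kind are not limited to stem cells, and in bulk RNA more cells of a type and more RNA per cell cannot be told apart.

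Total counts were 14943918, 16187378 and 16396693. Gpx4, the targeted gene, had 4399, 1998 and 2569 counts, so the library labelled as its knockout stood 1.27-fold (exact 95% interval 1.2 to 1.35) above Mist1+. Intervals here and below cover counting error only. A count over the whole gene also takes reads from exons that a deletion leaves in place, and this value does not check the deleted part. Bhlha15, the gene of Mist1, had 282, 580 and 370 counts. All 4 general epithelial markers (Epcam, Krt8, Krt18 and Cdh1) were high, with a summed FPKM of 1859 to 2556. Pgc and Cblif, of chief cells, were expressed, whereas the pepsinogen gene Pga5 and the parietal cell gene Atp4b had 0 counts in every library. A count of 0 does not exclude a low level. Of the 4 parietal cell markers 2 passed the FPKM limit, Atp4a with 58, 103 and 83 counts and Vegfb with 223, 189 and 338. None of the 6 immune or 5 fibroblast markers passed the FPKM limit. The immune markers summed to 7, 7 and 1 counts and the fibroblast markers to 11, 7 and 13. Of the 5 markers of squamous forestomach, which also expresses Sox2, only Ivl passed the FPKM limit, and Trp63 had 0 counts in all libraries.

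Upstream sequence for 6 of the 7 genes was taken from RefSeq on GRCm38.p6, as the 250 bases before each annotated start. It shows which letter matches to promoter elements stand before these genes, and a link to the differences between the libraries was not tested. Capitals mark every match, on either strand, to CCAAT (a common promoter box), TTTGAA (the core of the cell cycle homology region of mitotic genes), TGTGGT (the core RUNX site) and CANNTG (the E-box, the class of site that Mist1 binds). The windows are Lrig1 at chr6:94700146-94700395 on the minus strand, Iqgap3 at chr3:88081801-88082050 on the plus strand, and the more upstream of 2 annotated Prom1 windows at chr5:44101737-44101986 on the minus strand. RefSeq and GENCODE M21, whose gene positions are given below, place these starts differently, so that the Prom1 window lies inside the M21 span of the gene and the other 2 windows overlap theirs.
Lrig1: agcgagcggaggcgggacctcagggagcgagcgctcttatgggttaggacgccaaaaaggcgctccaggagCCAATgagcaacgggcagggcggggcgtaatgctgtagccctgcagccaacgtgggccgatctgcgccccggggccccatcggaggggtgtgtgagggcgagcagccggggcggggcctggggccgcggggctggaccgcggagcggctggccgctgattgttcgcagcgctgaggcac
Iqgap3: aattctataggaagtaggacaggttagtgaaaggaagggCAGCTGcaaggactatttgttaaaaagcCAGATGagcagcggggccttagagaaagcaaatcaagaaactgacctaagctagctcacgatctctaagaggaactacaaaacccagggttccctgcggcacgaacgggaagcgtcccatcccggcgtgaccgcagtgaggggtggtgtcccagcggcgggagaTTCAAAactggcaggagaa
Prom1: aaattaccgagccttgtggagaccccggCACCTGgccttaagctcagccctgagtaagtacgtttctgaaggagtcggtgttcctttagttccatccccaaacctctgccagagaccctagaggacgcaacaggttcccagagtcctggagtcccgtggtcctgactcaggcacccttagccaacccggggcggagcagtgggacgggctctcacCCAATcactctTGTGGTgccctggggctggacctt

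In Iqgap3 the capitals nearest to the start are TTCAAA, the reverse complement of the cell cycle core, with its first base 19 bases before the start. None of the other 7 windows of these genes held that core, which stands in 16% of all 32851 windows in the RefSeq table. The CCAAT box was found in 5 of the 8 windows, in Lrig1, Sox2, Prom1 and both Runx1 windows, beside 33.8% of all windows. The E-box was in 4 of 8 windows, from 4 genes, beside 66.2%, and the RUNX core was in 1 of 8, that of Prom1, beside 14%. Each match is a match of letters only, and which of the annotated starts were used in these cultures is not known from the counts.

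Per unit of length Prom1 was the most abundant of the 7 genes in every library. Prom1 (ENSMUSG00000029086; GRCm38 chromosome 5, 43993620 to 44102032, minus strand) stood at 231 FPKM (Poisson 95% interval 229 to 234), 335 FPKM (332.0 to 339) and 335 FPKM (332 to 338). These levels put it at rank 243, 81 and 101 among the 13351 genes. Stmn1 came next in Mist1- and Mist1+, Sox2, Lrig1 and Bmi1 were below it, and Runx1 and Iqgap3 were the lowest of the 7 genes in each library. In Mist1- and Mist1+ no neighbours in the order of FPKM had overlapping counting intervals, and in Gpx4 KO-Mist1+ the only such pair was Lrig1 with 57.4 (55.9 to 59) FPKM and Stmn1 with 56.6 (54 to 59.3) FPKM.

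**Figure D1:**
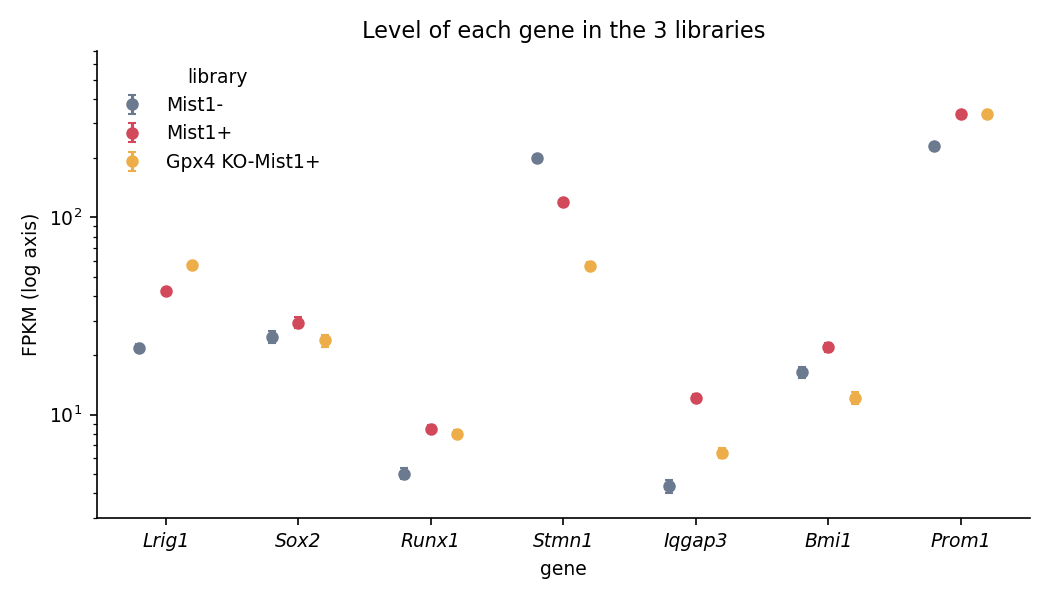
FPKM (log axis) of the 7 genes in each library, 1 point per library, with bars for the exact Poisson 95% interval of the count (mostly smaller than the point). Lrig1 is highest in Gpx4 KO-Mist1+ and Stmn1 is lowest there, while the 3 points of Sox2 lie close together.

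The comparison of Mist1+ with Mist1- sets organoids derived from cells labelled Mist1+ beside those labelled Mist1-. The Mist1- library also expressed Bhlha15, at 5.4 FPKM beside 10.2 in Mist1+. All but Stmn1 were higher in Mist1+, and Iqgap3 and Lrig1 were farthest apart. On the scale of differences of log2(FPKM + 1), used for all calls, 6 of 7 were above 0 and the median was 0.53. Over all 13351 genes 58.8% were above 0, with a median of 0.15. Iqgap3 alone was at least 2-fold higher and none was at least 2-fold lower, beside 7.88% higher and 5.73% lower over all genes. With TPM, in which all libraries have the same FPKM sum, the median of all genes was 0.47 and that of the 7 genes 0.86, and with median ratio scaling these were 0.00 and 0.34. Markers of other gastric cells also differed between these libraries. The 4 pit cell markers, of which 3 passed the limit, summed to 713, 98 and 90.4 FPKM, of which Tff1 made up 656.8, 90.6 and 87.7. The chief cell markers, with 4 of 6 past the limit, summed to 2018, 3506 and 2641 FPKM. The 4 neck cell markers summed to 216, 107 and 175 FPKM, of which Tff2 made up 178, 52.5 and 110.6, but they were split, since Muc6 was 3.49-fold (3.29 to 3.71) and A4gnt 2.66-fold (2.35 to 3.02) above Mist1- in Mist1+. These differences also moved when a trend on gene length, described below, was removed. In Mist1+ over Mist1- the log2 difference of Muc6 went from 1.64 to 0.85 and that of Tff2 from -1.74 to -1.36. A4gnt went from 1.31 to 1.43, the median of the pit markers from -2.84 to -2.39 and that of the chief cell markers from 0.78 to 0.99. The part of these cell markers in the differences of the 7 genes was not tested.

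In the comparison of Gpx4 KO-Mist1+ with Mist1+, which concerns the labelled loss of Gpx4, Stmn1, Iqgap3 and Bmi1 had the lowest ratios. Lrig1 alone was above 0. The other 6 of 7 were below 0, although for Prom1 and Runx1 the counting interval of the fold included 1, and with median ratio scaling both of these were above 0 (0.10 and 0.01), and the median was -0.29, beside 58.8% of all genes below 0 with a median of -0.09. Stmn1 was at least 2-fold lower, where the background was 2.74%, and no gene was at least 2-fold higher, where it was 4.81%. Against Mist1- the labelled knockout had Lrig1 at least 2-fold higher (background 11.6%) and Stmn1 at least 2-fold lower (background 8.56%). The 3 comparisons share libraries, so they are not independent of each other.

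**Figure D2:**
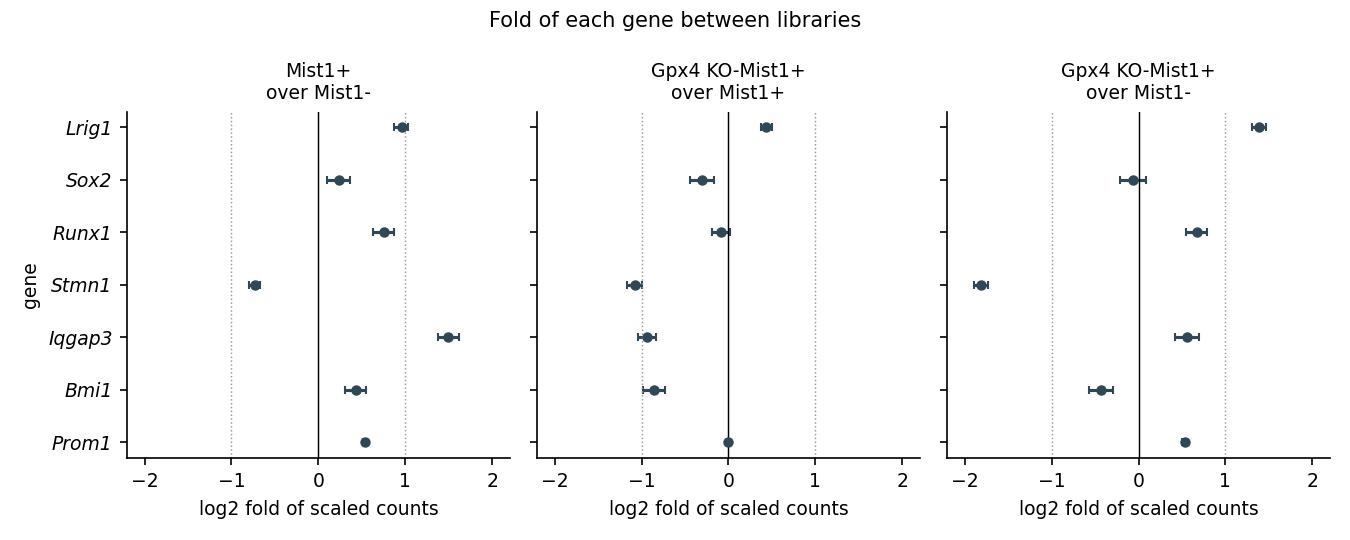
Log2 fold of counts scaled to the column totals for the 7 genes in each comparison, with exact 95% intervals for counting error only; dotted lines mark 2-fold. Stmn1 lies left of 0 in all 3 panels and Lrig1 right of 0, while Sox2, Iqgap3 and Bmi1 change sides between the first 2 panels. Runx1 and Prom1 go from right of 0 to near 0 between these panels, where their intervals include 0.

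The differences between Mist1+ and Mist1- ran with gene length over the whole table (Spearman rho 0.49 across genes, which are not independent), as did those between Gpx4 KO-Mist1+ and Mist1- (rho 0.39), while between Gpx4 KO-Mist1+ and Mist1+ rho was -0.02. The 7 genes span this range, from 1922 bases in Stmn1 to 12025 in Runx1. In the longest of 5 equal length classes, to which Iqgap3, Runx1 and Prom1 belong, 18.2% of genes were at least 2-fold higher in Mist1+. In class 2 from the short end, with Stmn1 and Sox2, 1.76% were, and in the shortest class, which holds none of the 7 genes, 13.5%. With the trend on length removed, the log2 difference of Iqgap3 went from 1.30 to 0.63 and Runx1 from 0.65 to -0.05. Prom1 went from 0.53 to 0.06, while Sox2 went from 0.22 to 0.53. Lrig1 went from 0.92 to 0.59, Bmi1 from 0.41 to 0.29 and Stmn1 from -0.73 to -0.39. The part of transcript integrity or library preparation in this trend was not tested.

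**Figure D3:**
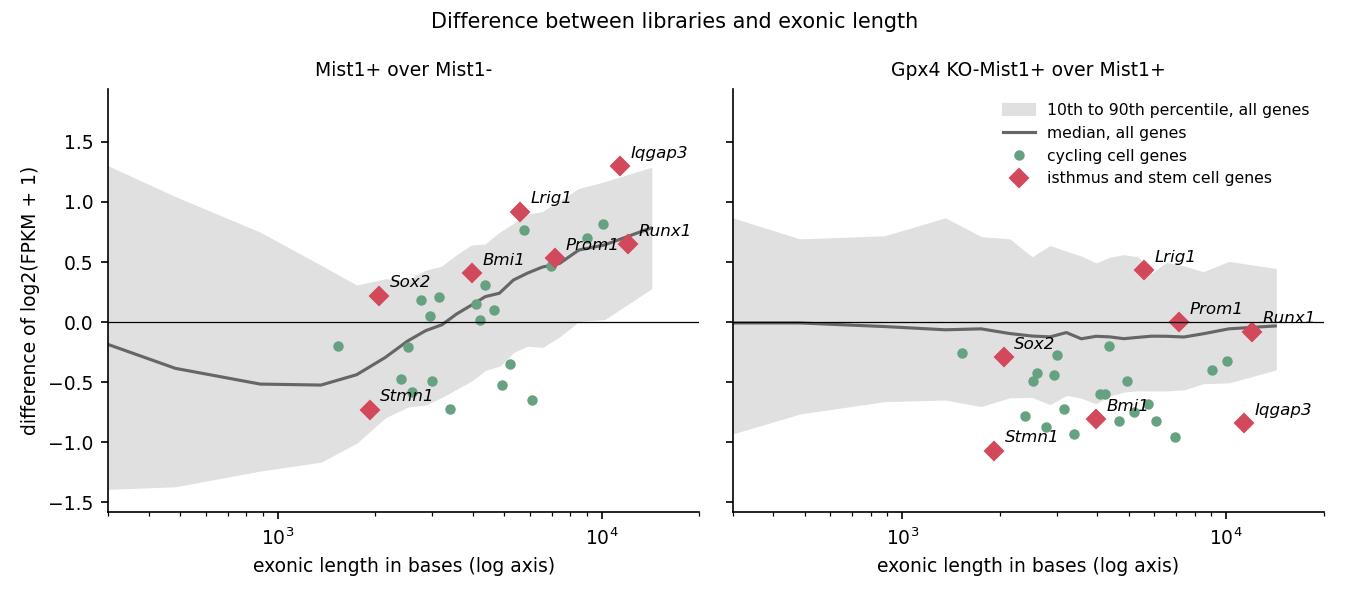
Difference of log2(FPKM + 1) against exonic length in bases (log axis) for the 7 genes (diamonds) and 20 cycling cell genes (circles), with the median and the 10th to 90th percentile of all 13351 genes in 20 length bins. From a median length of 1359 bases upward, the median is higher at greater length for Mist1+ over Mist1- (rho 0.49 over all genes) and is flat for Gpx4 KO-Mist1+ over Mist1+ (rho -0.02), where all 20 cycling genes lie below 0.

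Lrig1 (ENSMUSG00000030029; GRCm38 chromosome 6, 94604529 to 94700158, minus strand) had 1829, 3841 and 5257 counts, or 21.9, 42.5 and 57.4 FPKM. It was the one gene of the 7 that was highest in the labelled knockout. Mist1+ exceeded Mist1- 1.94-fold (1.83 to 2.05), and the labelled knockout exceeded Mist1+ 1.35-fold (1.3 to 1.41). The whole span from Mist1- to the labelled knockout was 2.62-fold (2.48 to 2.76).

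Lrig1 restrains the EGF receptor family, Met and Ret, in part through the ubiquitin ligase Cbl. Of 10 such partners and relatives 9 passed the FPKM limit, and Erbb4, the one that did not, had 0 counts throughout. These 9 genes are 5210 to 12345 bases long. All 9 were above 0 in Mist1+ over Mist1-, beside 58.8% of genes of any length. Their median was 0.72 (0.28 with the length trend removed). On the log2(FPKM + 1) scale 3 were at least 2-fold higher, beside 7.88% of all genes and 18.2% in the longest class. In scaled counts Cbl was 3.16-fold (2.83 to 3.54), Cblb 3.02-fold (2.57 to 3.58) and the receptor gene Erbb3 2.09-fold (1.97 to 2.22) higher, and Ret and Met were also past 2-fold, at 2.38 (1.85 to 3.07) and 2.07 (1.92 to 2.24). The log2 differences of Cbl, Cblb and Erbb3 were 0.60, 0.43 and 0.65 once the length trend was removed. Those of Lrig3 (-0.30), Egfr (-0.23) and Lrig2 (-0.12) were then below 0, and the other partners were above it.
In Gpx4 KO-Mist1+ against Mist1+ the partners were split, 4 above and 5 below 0, with a median near 0. The paralog Lrig3 was 2.17-fold (1.99 to 2.36) higher there, with 584, 776 and 1703 counts. Like Lrig1 it was highest in the last. Egfr was 1.94-fold (1.74 to 2.16) higher, whereas Ret, with 229 counts in Mist1+ and 45 in the labelled knockout, was 5.15-fold (3.73 to 7.26) lower and Met 1.68-fold (1.57 to 1.8) lower.

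Sox2 (ENSMUSG00000074637; GRCm38 chromosome 3, 34650405 to 34652461, plus strand) had 765, 974 and 801 counts, the smallest span of the 7 genes in FPKM. With the length trend removed Prom1 and Runx1 were more even. Its FPKM was 24.9 (23.2 to 26.7), 29.2 (27.4 to 31.1) and 23.8 (22.1 to 25.5). Mist1+ exceeded Mist1- 1.18-fold (1.07 to 1.29), and the labelled knockout was 1.23-fold (1.12 to 1.35) below Mist1+. Between Mist1- and the labelled knockout the interval of the fold, 0.863 to 1.06, included 1, and the direction turned with TPM or with the length trend removed. A host transcript on the same strand, Sox2ot, had 8, 14 and 13 counts, few beside those of Sox2.

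Of 18 other SOX genes 6 passed the limit, and 7 had 0 counts in all libraries. Sox9, Sox21 and Sox4 were the abundant ones. Sox4, at 18.9, 45.2 and 28.2 FPKM, had a larger span than Sox2, with Mist1+ 2.39-fold (2.25 to 2.55) above Mist1- and 1.6-fold (1.52 to 1.69) above the labelled knockout. Sox21 had the same order of libraries as Sox4, with 1176, 2156 and 1731 counts. The intestinal identity genes Cdx1 and Cdx2 did not pass the limit, and Cdx1 had 0 counts throughout. Of 11 measured foregut and intestinal factors none was 2-fold apart on the log2(FPKM + 1) scale in any of the 3 comparisons. Gata4, an early endoderm factor at 31.6, 59.6 and 33.1 FPKM, had the largest difference on that scale, with Mist1+ 1.89-fold (1.79 to 2) above Mist1- and 1.8-fold (1.71 to 1.9) above the labelled knockout. In scaled counts Pdx1, a factor of the antrum and duodenum with 90, 47 and 94 counts, differed more, with Mist1+ 2.07-fold (1.44 to 3.02) below Mist1- and the labelled knockout 1.97-fold (1.38 to 2.87) above Mist1+.

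Runx1 (ENSMUSG00000022952; GRCm38 chromosome 16, 92601466 to 92826149, minus strand) had 903, 1650 and 1574 counts, or 5.03, 8.48 and 7.98 FPKM. Mist1+ exceeded Mist1- 1.69-fold (1.55 to 1.83), and this difference was -0.05 on the log2 scale with the length trend removed. Between Mist1+ and the labelled knockout the interval of the fold, 0.878 to 1.01, included 1, and with median ratio scaling the log2 difference was 0.01. Runx1 is also a blood cell gene, and the 6 immune markers summed to at most 7 counts in any library, with Cd3e and Itgam at 0.
Runx3 and the corepressor genes Runx1t1 and Cbfa2t3 did not pass the limit. Cbfb, the shared partner of RUNX proteins, was at 34.5, 47.8 and 25.6 FPKM, so per length it was above Runx1 in each library. It was 1.87-fold (1.75 to 1.99) lower in the labelled knockout than in Mist1+. Runx2 was low, but 1.91-fold (1.61 to 2.26) higher there, with 216 and 417 counts.

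Stmn1 (ENSMUSG00000028832; GRCm38 chromosome 4, 134468320 to 134473843, plus strand) had the largest span of the 7 genes. It had 5722, 3723 and 1783 counts, or 199, 120 and 56.6 FPKM. The level was 1.66-fold (1.6 to 1.74) lower in Mist1+ than in Mist1-, 2.12-fold (2 to 2.24) lower in the labelled knockout than in Mist1+, and 3.52-fold (3.34 to 3.72) lower there than in Mist1-. The step from Mist1+ to the labelled knockout was past 2-fold by a small margin, at -1.07 on the log2 scale, and was -0.98 with the length trend removed.

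Stmn1 binds tubulin dimers, and most tubulin genes had its order of libraries. Of 9 measured tubulin genes 8 were ordered Mist1-, Mist1+, Gpx4 KO-Mist1+ from high to low, the order of Stmn1, which 21.9% of all genes had. That share is over genes of any length, whereas these tubulin genes are 1610 to 3701 bases long. In Mist1+ over Mist1- their median was -0.58, and -0.28 with the length trend removed. Against Mist1- the labelled knockout was at least 2-fold lower for 7 of the 9, beside 8.56% of all genes and 12.4% in the length class of Stmn1. The median was -1.28 (-0.99 with the length trend removed). Tubb4b was at 443, 296 and 208 FPKM and was 2.13-fold (2.07 to 2.19) lower there. Tuba1b was 2.66-fold (2.57 to 2.76) lower and Tuba1a, with 427, 194 and 32 counts, 14.6-fold (10.2 to 21.7) lower. Tuba1a, Tuba1b and Tuba1c are near-identical copies, so their split of reads is uncertain. Tubb6 was the exception to the order, at 9.75, 5.55 and 7.98 FPKM. The neuronal relatives Stmn2 and Stmn3 had 0 counts in each library.

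Iqgap3 (ENSMUSG00000028068; GRCm38 chromosome 3, 88081971 to 88121048, plus strand) had 738, 2247 and 1192 counts, or 4.34, 12.2 and 6.39 FPKM. It was thus highest in Mist1+, at 2.81-fold (2.59 to 3.06) the level in Mist1-. In the labelled knockout it was 1.91-fold (1.78 to 2.05) lower than in Mist1+ and still 1.47-fold (1.34 to 1.62) above Mist1-. That last direction turned with the length trend removed, to -0.18.
The paralogs Iqgap1 and Iqgap2, scaffolds of the cell cortex, had another order and were highest in the labelled knockout. Iqgap1 was at 9.9, 20.7 and 23.2 FPKM and Iqgap2 at 18.6, 27.5 and 41.1. Of 10 IQGAP relatives and small GTPase partners 9 were above 0 in Mist1+ over Mist1-, beside 58.8% of all genes, with a median of 0.61, which was 0.13 with the length trend removed. Cit, a kinase of cytokinesis, was 3.76-fold (3.28 to 4.33) and Anln, which organises the cleavage furrow, 2.05-fold (1.9 to 2.2) higher. With the length trend removed, the log2 difference of Cit went from 1.28 to 0.47 and that of Anln from 0.95 to 0.37. In the labelled knockout Anln was at 0.988 times Mist1+ (0.933 to 1.05), and Cit was 1.29-fold (1.17 to 1.41) lower.

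Stmn1 and Iqgap3 are both used to mark dividing isthmus cells, and in Mist1+ over Mist1- they went opposite ways. Dividing cells were followed with 20 cycling cell genes, all of which passed the limit. In Mist1+ over Mist1- they were split, 11 above and 9 below 0, with a median of 0.03. The split went partly with length. Of the 10 longer genes 7 were above 0 and of the 10 shorter genes 4 were, with a Spearman rho of 0.43 over 20 genes that share the same libraries. Mki67, with an exonic length of 10061 bases, was 1.78-fold (1.73 to 1.84) higher in Mist1+, while Birc5, with 3402 bases, was 1.67-fold (1.57 to 1.79) lower. Tyms, the thymidylate synthase gene, with 6089 bases, was 1.6-fold (1.5 to 1.7) lower.
From Mist1+ to the labelled knockout Stmn1 and Iqgap3 were both lower, and so were 20 of 20 cycling genes, beside 58.8% of all genes, with a median of -0.60 and none of them 2-fold apart on the log2(FPKM + 1) scale. In scaled counts Mcm2, of the replication helicase, was 2.05-fold (1.9 to 2.2) lower, Birc5 1.96-fold (1.8 to 2.14) and Mki67 1.25-fold (1.22 to 1.28). Of the 20 genes 16 were lowest in the labelled knockout, as Stmn1 was, beside 35.4% of all genes.

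Bmi1 (ENSMUSG00000026739; GRCm38 chromosome 2, 18677018 to 18686629, plus strand) was highest in Mist1+ and lowest in Gpx4 KO-Mist1+. It had 971, 1416 and 790 counts, or 16.4 (15.3 to 17.4), 22 (20.9 to 23.2) and 12.1 (11.3 to 13) FPKM. Mist1+ exceeded Mist1- 1.35-fold (1.24 to 1.46), and the level was 1.82-fold (1.66 to 1.98) lower in the labelled knockout than in Mist1+.

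Bmi1 represses the Cdkn2a locus, whose products stop the cell cycle, and the neighbouring Cdkn2b. Cdkn2a had 211, 25 and 206 counts and Cdkn2b 258, 163 and 397, so both were lowest in Mist1+, the library with most Bmi1. Whether their levels go with that of Bmi1 was not tested. Cdkn2a was 9.14-fold (6.02 to 14.4) lower in Mist1+ than in Mist1- and 8.13-fold (5.36 to 12.9) higher in the labelled knockout than in Mist1+. Cdkn2b was 1.71-fold (1.4 to 2.1) lower and 2.4-fold (2 to 2.9) higher in the same comparisons. Cdkn2a is 1172 and Cdkn2b 1390 bases long, so both belong to the shortest length class. With the length trend removed, the log2 difference of Cdkn2a in Mist1+ over Mist1- went from -2.49 to -2.03. That of Cdkn2b went from -0.70 to -0.26. Over all genes, the length bin with a median of 1359 bases had a median difference of -0.52 there. Between Mist1- and the labelled knockout Cdkn2a differed little, at 0.89 times (0.731 to 1.08). Cdkn2b was 1.4-fold (1.2 to 1.65) higher and Bmi1 1.35-fold (1.23 to 1.48) lower in the labelled knockout than in Mist1-.
Of 21 other Polycomb genes, all measured, 15 were above 0 in Mist1+ over Mist1-, beside 58.8% of all genes, and their median of 0.25 was -0.04 with the length trend removed. Rybp, a subunit of variant Polycomb complexes, was 3.24-fold (2.7 to 3.9) and Phc3, a polyhomeotic subunit, 4.02-fold (3.62 to 4.47) higher. With the length trend removed, the log2 difference of Rybp went from 1.34 to 1.11 and that of Phc3 from 1.53 to 0.70. In Gpx4 KO-Mist1+ over Mist1+ 10 were above and 11 below 0, and none was 2-fold apart. Of the 5 other genes of the Pcgf family to which Bmi1 belongs, 3 were higher there. Pcgf6 was 1.75-fold (1.6 to 1.91), Pcgf5 1.67-fold (1.52 to 1.82) and Pcgf3 1.11-fold (1.04 to 1.19) higher in the labelled knockout. For Pcgf2 and Pcgf1 the intervals of the fold, 0.856 to 1.08 and 0.673 to 1.14, included 1. Rnf2, the ubiquitin ligase that pairs with Pcgf proteins, was 1.14-fold (1.05 to 1.24) higher.

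Prom1 had 24803, 38948 and 39394 counts, and Mist1+ exceeded Mist1- 1.45-fold (1.43 to 1.47). In Gpx4 KO-Mist1+ it was at the level of Mist1+, with a fold of 0.999 (0.985 to 1.01), and its log2 difference was 0.10 with median ratio scaling or with the length trend removed. Its counts are the largest of the 7, so its counting interval is the narrowest. Gm42716, a transcript on the same strand within the Prom1 locus, had 0 counts in Mist1- and 31 and 35 in the other libraries, few beside those of Prom1.
The paralog Prom2 was low, with 56, 72 and 184 counts, and was 2.52-fold (1.91 to 3.36) higher in the labelled knockout than in Mist1+. Of 8 prominin and other progenitor surface genes 6 were above 0 in that comparison, beside 40.7% of all genes, with a median of 0.42. Cd44, the hyaluronan receptor, was at 29.8, 29.9 and 113 FPKM. It was thus 3.8-fold (3.66 to 3.95) higher in the labelled knockout than in Mist1+, while Prom1 was at one level in these 2 libraries. Alcam was 1.64-fold (1.59 to 1.7) higher and Cd24a, an abundant surface protein gene, 1.23-fold (1.21 to 1.25) lower in the labelled knockout.

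Other stem cell genes of the stomach and intestine were mostly higher in the labelled knockout than in Mist1+. Of 20 such genes 16 passed the limit and 12 of these were above 0, beside 40.7% of all genes. The median was 0.82, and past 2-fold 7 were higher and 1 was lower, beside 4.81% and 2.74% of all genes. Lgr5, a receptor of Wnt-dependent stem cells, was at 6.4, 10.9 and 37 FPKM, and the water channel gene Aqp5 at 146, 97.2 and 568 FPKM. Both were highest in the labelled knockout, as Lrig1 was. Hopx, a homeobox gene of slow-cycling cells, had 77, 45 and 428 counts and was 9.39-fold (6.9 to 13.1) higher. Vil1, the actin bundler of microvilli, had 1741, 814 and 4946 counts and was 6-fold (5.57 to 6.47) higher. Smoc2, a matrix protein of intestinal stem cells, was the one that was 2-fold lower, with 196, 838 and 187 counts, or 4.54-fold (3.87 to 5.35). Like Bmi1, Smoc2 was highest in Mist1+. Between Mist1- and the labelled knockout the interval of its fold, 0.708 to 1.07, included 1.
Tert, the telomerase gene, was low, with 30, 75 and 173 counts, and like Lrig1 it was highest in the labelled knockout.

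**Figure D4:**
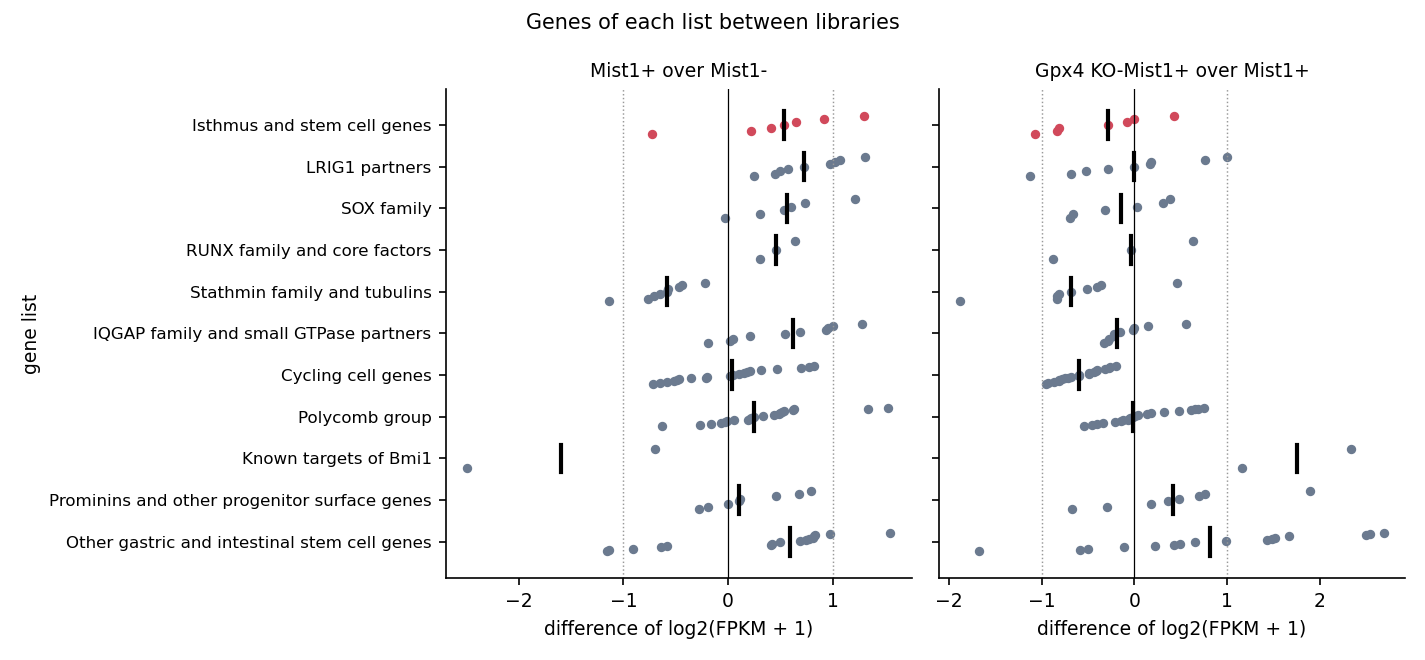
Difference of log2(FPKM + 1) for each gene that passed the FPKM limit (points), by list, with the list's median as a black bar and 2-fold as dotted lines. In Gpx4 KO-Mist1+ over Mist1+ the cycling list (median -0.60) and the tubulin list (median -0.68) lie to the left, and the other stem cell genes (median 0.82) to the right.

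The profiles of the 7 genes over the 3 libraries were compared by the Euclidean distance between their log2(FPKM + 1) values, each centred on its own mean. Runx1 and Prom1 were closest, at 0.0852, and Lrig1 and Stmn1 were farthest apart, at 2.23. Stmn1 and Iqgap3 stood 1.76 apart. Among 8173 other genes that reached 5 FPKM in some library and whose symbol is not a clone, Gm, Rik or small RNA name, 250 lay within 0.1 of Runx1, 233 of Prom1 and 222 of Sox2, so these profiles are common. Only 5 lay within 0.1 of Iqgap3 and 6 of Stmn1, and the numbers were 38 for Lrig1 and 43 for Bmi1. Nearest to Iqgap3 were Tgfbr1, a TGF-beta receptor gene at 5.9, 15.3 and 8.34 FPKM, and Casp8ap2. Nearest to Stmn1 were Bud31, a splicing factor gene at 77.3, 44.5 and 21.3 FPKM, and Hras. The lamin gene Lmnb1 was nearest to Bmi1. Washc4 and Ankrd50 were nearest to Lrig1, Ttc30b and Scfd1 to Sox2, Acss1 and AI597479 to Runx1, and Mapk9 and Src to Prom1. With 3 libraries a close profile is easily found, and it is a description only.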

How the data were processed

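The 3 libraries were sequenced on an Illumina HiSeq instrument, per the series' design text. Per the submitters' processing notes, the authors used cutadapt 1.9.1, HISAT2 2.2.1 with GRCm38.p5 and HTSeq 0.6.1; the strand setting and the annotation release are not given in the sources used here. The deposited table holds a count per gene and an FPKM that the authors derived from it, per the file headers. Recomputed from count, exonic length and column total, FPKM deviated by at most 2.85% among genes with at least 50 counts. The start positions in the table differ from GENCODE M21 (GRCm38) for all 7 genes while the spans are the same, so positions are those of M21.

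Values were computed in Python 3.11.15 with pandas 2.3.3 and numpy 2.4.6; intervals came from scipy 1.17.1, the lowess fit from statsmodels 0.14.6 and plots from matplotlib 3.10.9. A gene was kept if any library reached 1 FPKM. Calls are differences of log2(FPKM + 1) of at least 2-fold. Folds are ratios of counts scaled to column totals with exact 95% intervals from the binomial split, and counts have exact Poisson 95% intervals. These cover counting error only. The length trend was a lowess fit (fraction 0.3) on log2 exonic length. The code was tested on simulated data. The alternatives are given in the closing section. Genes to name were the up to 4 with the largest difference per list and comparison, of which not all are described, and the 2 nearest in profile to each of the 7 genes, of which 1 is not reported here. Lrig2, Tubb4b, Pcgf1, Pcgf2, Pcgf3, Rnf2, Cd24a, Tert and the neck, pit and parietal cell markers lie outside this rule. They were named after their values were seen, as were genes named for 0 or few counts. The 7 genes and the gene lists were chosen with earlier results of these data known.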

Additional observations from a re-analysis of the deposited data

How the results depend on the processing

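With 1 library per group no replicate could be left out, and no paired analysis was possible because no group has replicates. Values were recomputed with pseudocounts of 0.1 and 5, without the filter or with a limit of 5 FPKM, with TPM, median ratio scaling, CPM, removal of the length trend, and cutoffs of 1.5-fold and 4-fold. For Mist1+ over Mist1- the median log2 difference of the 7 genes was 0.43 with pseudocount 5, 0.86 with TPM, 0.34 with median ratio scaling and 0.29 with the length trend removed. The number at least 2-fold higher there was 0 with pseudocount 5, 3 with TPM and 0 with the length trend removed. At a 1.5-fold cutoff 3 were higher and 1 lower, and at 4-fold 0 were higher. For Gpx4 KO-Mist1+ over Mist1+ the number lower was 0 with median ratio scaling, 0 with the length trend removed, 3 at 1.5-fold and 0 at 4-fold. For Gpx4 KO-Mist1+ over Mist1- the median was 0.29 with pseudocount 5, 0.80 with TPM and -0.10 with the length trend removed, and at 4-fold 0 were higher and 0 lower. Over all genes, the calls past 2-fold for Mist1+ over Mist1- were 1052 higher and 765 lower, and they were 3101 and 510 with TPM, 687 and 1134 with median ratio scaling, and 129 and 396 with pseudocount 5. The share of higher among these calls was 57.9%, 85.9%, 37.7% and 24.6% in that order. For Gpx4 KO-Mist1+ over Mist1+ the 642 higher and 366 lower calls were 884 and 689 with TPM and 226 and 70 with pseudocount 5. For Gpx4 KO-Mist1+ over Mist1- the 1553 and 1143 calls were 3223 and 797 with TPM and 349 and 564 with pseudocount 5. The cause of these changes was not tested.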
